A study of Mus musculus with 16 samples.

Results

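The genes described here encode the translation initiation factors of mouse embryonic stem cells, apart from the eIF4G scaffolds. They were chosen by name: gene symbols beginning with Eif1 to Eif6 were taken, Eif4g1, Eif4g2, Eif4g3 and the Y-linked Eif2s3y were left out, and a mean of at least 10 normalised reads was required in footprints and in total RNA. Of the 21977 rows of the deposited table, 51 belonged to the family and 48 passed. The rule compared no genotypes, but it was set with earlier results of these data known. Eif4e3 passed in footprints only through the genotypes where it was high, as described with its counts. The 3 that did not pass were Eif3j2, with 0 to 5.42 normalised reads in footprints against 74.5 to 206 in total RNA, and Eif4e1b and Eif4ebp3, which stayed under 10 in every library.

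Initiation factors bring the initiator tRNA, the small ribosomal subunit and the mRNA together at a start codon. In the usual route eIF4E holds the mRNA cap, eIF4G bridges it to the helicase eIF4A and to eIF3, and eIF3 sits on the small subunit, which also carries eIF1, eIF1A, eIF5 and the eIF2 complex with its tRNA. Nat1, also called Eif4g2 or DAP5, is a relative of eIF4G without a binding site for eIF4E, so its loss removes one scaffold while the factors described here remain encoded. The comparisons address what the levels and the translation of those factors are when Nat1 is missing or reduced.

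Footprints, or ribosome-protected fragments (RPFs), are the pieces of mRNA that ribosomes shield from digestion. They were sequenced beside the total RNA of 8 cultures of RF8 embryonic stem cells, kept with LIF on gelatin: 3 Nat1-/- clones (B12, B2 and C3, replicates 1 to 3), 3 Nat1+/- clones (A7, B4 and C1, replicates 1 to 3) and 2 wild-type (WT) cultures (WTex1 and WTex2, replicates 1 and 2). Each targeted replicate is its own clone, whereas the WT replicates are cultures of 1 line, so the WT spread holds no clonal difference. Values are normalised reads, that is, reads divided by 1 factor per library. Translational efficiency (TE) is log2(RPF + 1) minus log2(total RNA + 1) of the same culture. A gene was called when its limma p-value, adjusted by Benjamini-Hochberg over all genes tested, was under 0.05, and each fold change is given on that log2(value + 1) scale with its standard error.

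Library depth was 17.5 to 23.8 M reads (M, mega-reads) in RPF. In total RNA it was 42.5 M in Nat1-/- replicate 1 and 33.6 and 42.6 M in WT, against 13.2 to 16.4 M in the other 5 cultures, so depth partly coincided with genotype. Footprints of Eif4g2 itself were 922 to 1114 in Nat1-/-, 7275 to 10261 in Nat1+/- and 13862 and 17666 in WT. All 10 stem cell markers examined, Pou5f1 and Nanog among them, were present, with summed RPF values of 185803 to 206721 in Nat1-/-, 111953 to 134105 in Nat1+/- and 90590 and 107525 in WT. Not every stem cell marker kept the order of the sum. Pou5f1 was lower in Nat1+/- (11136 to 14984) than in WT (17038 and 16894). Utf1 overlapped between the genotypes, and Zfp42 overlapped between Nat1+/- and WT. The sum of 10 fibroblast markers ran opposite to the stem cell sum. It was 168 to 264 in Nat1-/-, 595 to 1547 in Nat1+/- and 3619 and 10754 in WT. Col1a1, Acta2 and Col1a2 made up most of the WT sums. Dcn was at 0 in all 3 Nat1-/- libraries and also in Nat1+/- replicate 1. Thy1 and Pdgfrb were instead highest in Nat1+/-. Thy1 had 219 to 328 there against 162 and 121 in WT, and Pdgfrb 188 to 228 against 113 and 165. The sum of 6 primitive endoderm markers was 3874 to 10504 in Nat1-/-, 3650 to 7801 in Nat1+/- and 2062 and 3563 in WT, nearly all of it Lama1. There Nat1-/- and Nat1+/- overlapped and both WT cultures lay below all 6 targeted cultures. Dab2 in that list ran against the sum, with 3.42 to 15.1 in Nat1-/-, 48.8 to 156 in Nat1+/- and 157 and 167 in WT. The part of either cell type in the differences below was not tested. Fewer cells of a type and less RNA per cell cannot be told apart in such bulk samples.

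**Figure D1:**
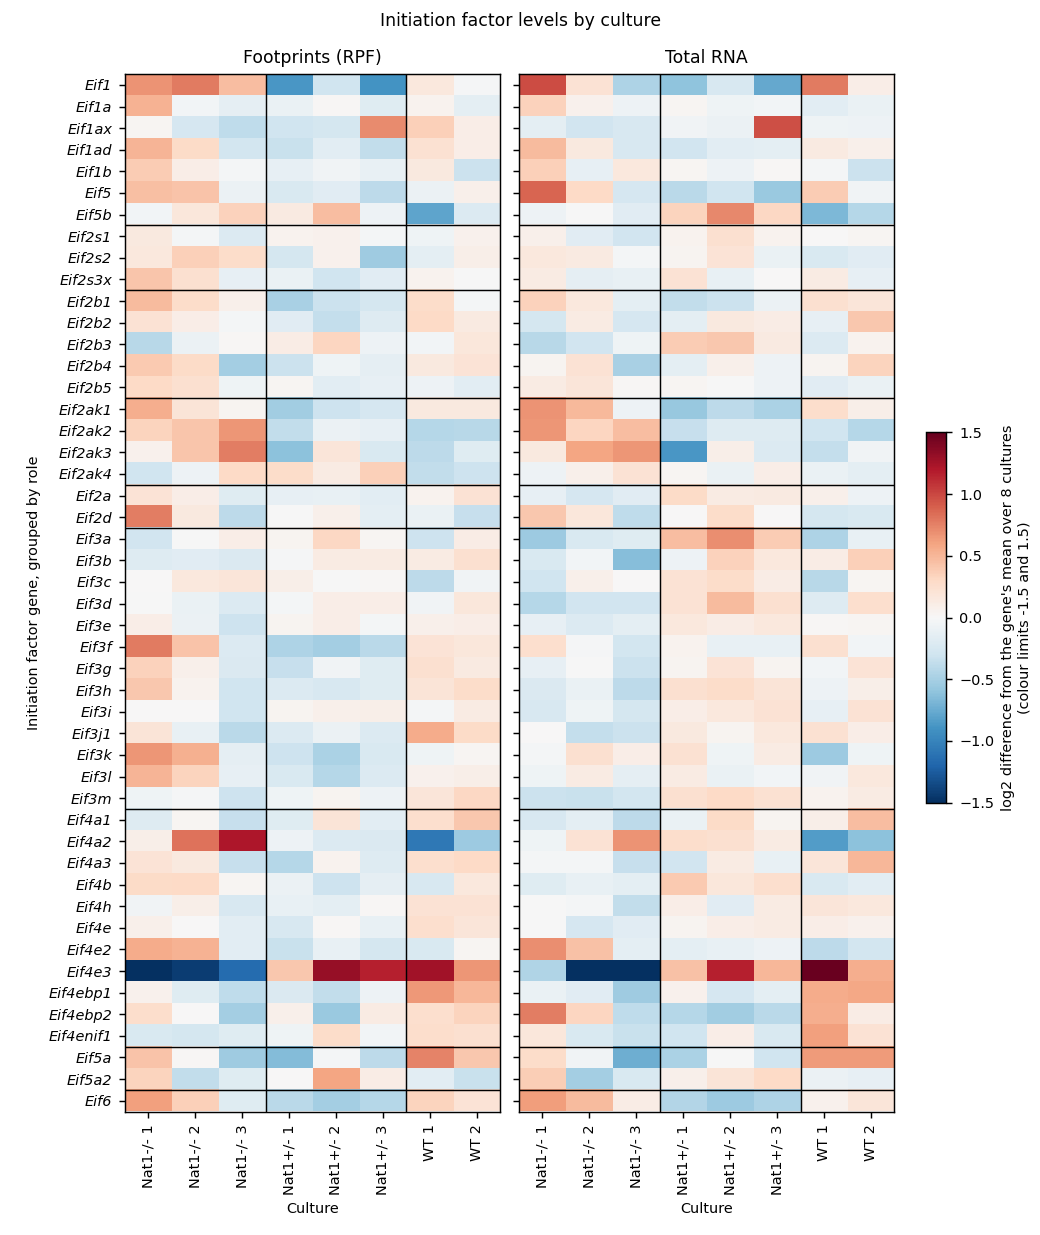
Levels of the 48 initiation factor genes in footprints (left) and total RNA (right), as the log2 difference from each gene's mean over the 8 cultures. Columns are the 3 Nat1-/-, 3 Nat1+/- and 2 WT cultures, and horizontal lines separate the roles. Eif4e3 is low in all Nat1-/- columns, Eif1ax stands out in 1 Nat1+/- column (replicate 3), and Eif3a and Eif3d are highest in the total RNA of Nat1+/-.

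In Nat1-/- against Nat1+/- clones, footprints of 11 of the 48 initiation factors rose and those of 1 fell, while in total RNA 5 rose and 10 fell. Eif1, the guardian of start codon choice, rose most in footprints, Eif6, which keeps the large ribosomal subunit from joining too early, rose most in total RNA, and Eif4e3, a minor relative of the cap-binding protein that is described with its low counts, fell in both. The whole footprint table had 17.6% of genes higher and 18.6% lower by the same rule, and total RNA had 19.8% higher and 20.2% lower. The 11 of 48 risen in footprints (22.9%) and the 10 fallen in total RNA (20.8%) were therefore near the background, whereas the 1 fallen in footprints (2.08%) and the 5 risen in total RNA (10.4%) lay below it. The median log2 fold change of the 48 was 0.20 in footprints and -0.06 in total RNA, against 0.02 and 0.01 over all genes tested. With single cultures left out, the number of members called ranged from 5 (without Nat1-/- replicate 2) to 20 (without Nat1-/- replicate 3) in footprints, where leaving out Nat1+/- replicate 1 gave 6. In total RNA it ranged from 10 (without Nat1+/- replicate 1) to 19 (without Nat1-/- replicate 3). The counts over all genes moved too. Of 13110 genes in footprints, 1187 were higher and 1616 lower without Nat1-/- replicate 2. Without Nat1-/- replicate 3 they were 2641 and 2804, against 2303 and 2434 with all cultures. Of 13813 genes in total RNA, 2130 were higher and 2351 lower without Nat1+/- replicate 1. Without Nat1-/- replicate 3 they were 3116 and 3117, against 2730 and 2789. The 4 footprint calls that held whichever culture was left out were Eif1, Eif2ak2, Eif2b1 and Eif4e3. Of these, Eif4e3 passed the minimum mean of 10 in footprints only through Nat1+/- and WT. Its footprint fall, the only 1 among the 48, is therefore not read as support. The 10 such calls in total RNA were Eif2ak1, Eif2ak2, Eif2b3, Eif3a, Eif3d, Eif3h, Eif3m, Eif4e3, Eif5b and Eif6.

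**Figure D2:**
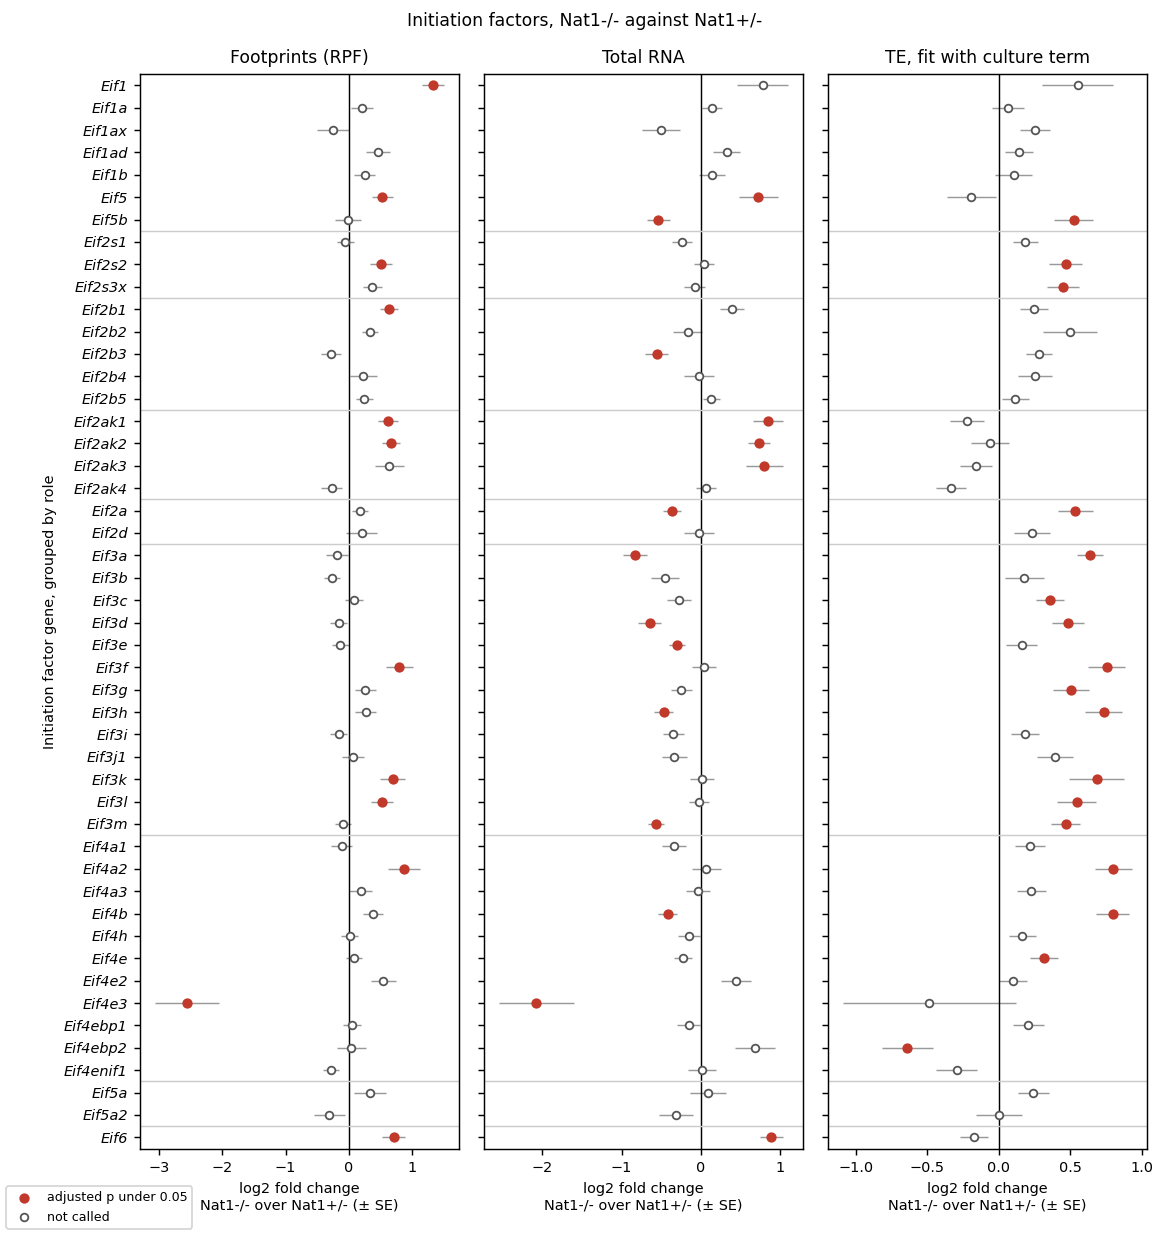
Log2 fold change of each initiation factor in Nat1-/- over Nat1+/- (horizontal axis, bars ± SE) in footprints, total RNA and TE, the last from the fit with a culture term. Filled points passed an adjusted p of 0.05. Most filled points in footprints and TE lie right of 0, and most in total RNA lie left of it.

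Among the factors that act during scanning and at the start codon, Eif1 footprints rose in Nat1-/- clones, and Eif5 rose in footprints and in total RNA. Eif1 keeps the scanning ribosome from settling on poor start codons. Its footprints were 9691, 10417 and 8340 in the Nat1-/- cultures, 3310, 4927 and 3252 in the Nat1+/- cultures, and 6732 and 5986 in the WT cultures. The 3 genotypes did not overlap, with WT between the others. In log2 terms Nat1-/- over Nat1+/- was 1.33 ± 0.18 (adjusted p = 0.000672). Total RNA of Eif1 was 7371, 4353 and 2721 in Nat1-/-, 2474, 3177 and 2202 in Nat1+/-, and 6405 and 3997 in WT. There the Nat1-/- cultures spread across the range of the others, and the log2 fold change over Nat1+/- was 0.78 ± 0.32 (adjusted p = 0.0762). Eif1b, a close paralogue of Eif1, had footprints of 629, 517 and 474 in Nat1-/-, 441, 467 and 448 in Nat1+/-, and 536 and 384 in WT, and its log2 fold change of 0.25 ± 0.17 was not called. The footprint ratio of Eif1b to Eif1 was 0.0650, 0.0496 and 0.0568 in Nat1-/-, 0.133, 0.0947 and 0.138 in Nat1+/-, and 0.0796 and 0.0642 in WT. The ratio was lower in every Nat1-/- culture than in every Nat1+/- culture (exact two-sided permutation p = 0.1, the smallest that 3 against 3 cultures allow).

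Eif5, which makes eIF2 hydrolyse its GTP once a start codon is found, had footprints of 9879, 9753 and 6815 in Nat1-/-, 6187, 6452 and 5495 in Nat1+/-, and 6816 and 7657 in WT. Replicates 1 and 2 of Nat1-/- stood above all other cultures, and replicate 3 lay at the low edge of WT. Its total RNA was 14976, 10119 and 6861 in Nat1-/-, 6216, 6681 and 5593 in Nat1+/-, and 10642 and 7906 in WT, again without overlap between Nat1-/- and Nat1+/-. Against Nat1+/- the log2 fold change was 0.53 ± 0.17 in footprints and 0.72 ± 0.24 in total RNA (adjusted p = 0.0326 and 0.0392). Both of these calls ended when any 1 of 5 of the 6 cultures was left out, all but Nat1-/- replicate 3, with adjusted p up to 0.131 and 0.110. Eif5b, the GTPase that joins the ribosomal subunits, fell in total RNA, at 3615, 3821 and 3392 in Nat1-/-, 4813, 6298 and 4730 in Nat1+/-, and 2388 and 2836 in WT. The genotypes did not overlap, and Nat1-/- lay between Nat1+/- and WT. Over Nat1+/- its log2 value changed by -0.54 ± 0.14 (adjusted p = 0.0139), beside -0.01 ± 0.20 in footprints.

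The eIF1A genes were not called in either assay, and neither was Eif1ad, which encodes a protein with an eIF1A domain. Eif1a had footprints of 4191, 2846 and 2675 in Nat1-/-, 2739, 2968 and 2588 in Nat1+/-, and 3047 and 2653 in WT. Eif1ax, its X-linked paralogue, had footprints of 6643, 5474 and 4975 in Nat1-/-, 5295, 5409 and 10631 in Nat1+/-, and 8320 and 6972 in WT. Nat1+/- replicate 3 was the highest culture. In total RNA the same culture had 10908, against 4567 to 5377 in the other 7. Eif1ax lies on the X chromosome (X:159372178-159389621, GRCm38.p6). Of the 6 nearest expressed genes on each side, 9 of 12 were also higher in that culture than in the other 7 in total RNA, and 9 of 12 in footprints. Over these 12 neighbours, that culture's value divided by the median of the other 7 had a median of 2.08 in total RNA and 2.35 in footprints, beside 2.07 and 1.94 for Eif1ax itself.

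Of the 3 subunit genes of the eIF2 complex, which carries the initiator tRNA, 1 rose in footprints in Nat1-/- against Nat1+/- clones (33.3%, against 17.6% of all genes) and 0 were called in total RNA. It was Eif2s2, the beta subunit, with footprints of 16169, 18527 and 17494 in Nat1-/-, 12071, 15173 and 10014 in Nat1+/-, and 13084 and 15435 in WT. Every Nat1-/- culture was above every other culture. The log2 fold change of 0.50 ± 0.17 (adjusted p = 0.0427) lost its call without any of 4 cultures, namely Nat1-/- replicates 2 and 3 and Nat1+/- replicates 1 and 3 (adjusted p up to 0.163). Eif2s1, the subunit that the stress kinases phosphorylate, had -0.06 ± 0.13 in footprints and -0.24 ± 0.13 in total RNA, and Eif2s3x, the tRNA-binding gamma subunit, 0.37 ± 0.15 and -0.08 ± 0.14, none of them called. Among the 5 subunits of eIF2B, which reloads eIF2 with GTP, Eif2b1 rose in footprints (0.63 ± 0.15, adjusted p = 0.00967), with 2797, 2421 and 2110 in Nat1-/-, 1431, 1601 and 1672 in Nat1+/-, and 2436 and 1967 in WT. Here the Nat1+/- cultures were the low ones and the Nat1-/- and WT ranges overlapped. Eif2b3 fell in total RNA (-0.56 ± 0.14, adjusted p = 0.0125), with 1038, 1136 and 1321 in Nat1-/-, 1794, 1833 and 1518 in Nat1+/-, and 1197 and 1429 in WT. The other 3 subunits were not called in either assay.

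The eIF2 kinase genes Eif2ak1, Eif2ak2 and Eif2ak3 rose in the total RNA of Nat1-/- clones. These kinases phosphorylate eIF2 under stress and so slow initiation, Eif2ak1 (HRI) when heme is short, Eif2ak2 (PKR) on double-stranded RNA, Eif2ak3 (PERK) on unfolded protein in the endoplasmic reticulum and Eif2ak4 (GCN2) when amino acids are short. Total RNA of Eif2ak2 was 1604, 1263 and 1398 in Nat1-/-, 797, 882 and 888 in Nat1+/-, and 822 and 751 in WT, and its footprints were 1090, 1157 and 1373 in Nat1-/-, 671, 812 and 793 in Nat1+/-, and 641 and 647 in WT. The Nat1-/- cultures were above all 5 others in both assays. The log2 fold change over Nat1+/- was 0.73 ± 0.14 in total RNA and 0.67 ± 0.14 in footprints (adjusted p = 0.00257 and 0.00620). Eif2ak1 had 1631, 1425 and 968 in the total RNA of Nat1-/-, 686, 776 and 734 in Nat1+/-, and 1222 and 1087 in WT. It rose by 0.84 ± 0.19 in total RNA and 0.62 ± 0.16 in footprints (log2, adjusted p = 0.00599 and 0.0134), and here again the Nat1+/- cultures were the low ones. The footprint call ended without Nat1+/- replicate 1 (adjusted p = 0.0505). Eif2ak3 rose in total RNA only by the call rule, by 0.80 ± 0.24 (adjusted p = 0.0232), with 1195, 1619 and 1704 in Nat1-/-, 589, 1140 and 930 in Nat1+/-, and 841 and 1039 in WT. The highest Nat1+/- culture came close to the lowest Nat1-/- culture, and the call ended without Nat1-/- replicate 2 or 3 or Nat1+/- replicate 1 (adjusted p up to 0.0835). Its footprints had 0.64 ± 0.23 (adjusted p = 0.0561). Eif2ak4 had 510, 598 and 776 footprints in Nat1-/-, 759, 687 and 804 in Nat1+/-, and 485 and 507 in WT, and it was not called in either assay.

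Among the 13 subunits of eIF3, the largest initiation factor, 5 fell in total RNA in Nat1-/- against Nat1+/- clones (38.5%, against 20.2% of all genes) and 3 rose in footprints (23.1%, near the 17.6% of all genes). No subunit did both. The subunits that fell in RNA were Eif3a, Eif3d, Eif3m, Eif3h and Eif3e. Eif3a, which forms the backbone of the complex, had total RNA values of 13207, 16473 and 17011 in Nat1-/-, 26571, 31245 and 25136 in Nat1+/-, and 14074 and 17960 in WT. The 3 Nat1+/- cultures were above all 5 others, while Nat1-/- and WT overlapped. The log2 fold change over Nat1+/- was -0.83 ± 0.15 (adjusted p = 0.00254). Footprints of Eif3a were 23343, 28201 and 30542 in Nat1-/-, 29254, 35293 and 28989 in Nat1+/-, and 22921 and 30597 in WT, and these overlapped throughout. Eif3d, a subunit that can itself bind a cap, fell by 0.65 ± 0.14 on the log2 scale (adjusted p = 0.00568), with 5244, 5783 and 5798 in Nat1-/-, 8220, 9835 and 8366 in Nat1+/-, and 6166 and 8370 in WT. Eif3m, another subunit of the core, had total RNA of 4056, 4030 and 4188 in Nat1-/-, 5997, 6259 and 5953 in Nat1+/-, and 5283 and 5539 in WT. In Eif3h the values were 3856, 4179 and 3431 in Nat1-/-, 5295, 5430 and 5122 in Nat1+/-, and 4276 and 4775 in WT. In both genes the Nat1-/- cultures were below all others. Eif3m fell by 0.57 ± 0.10 and Eif3h by 0.47 ± 0.12 (adjusted p = 0.00227 and 0.0110), and both held whichever culture was left out. Eif3e fell by 0.30 ± 0.10 (adjusted p = 0.0416), a call that ended without any of 5 cultures, all but Nat1-/- replicate 3 (adjusted p up to 0.138).

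The subunits that rose in footprints were Eif3f, Eif3k and Eif3l. Eif3f footprints were 8234, 6459 and 4143 in Nat1-/-, 3481, 3355 and 3610 in Nat1+/-, and 5522 and 5397 in WT. All Nat1-/- cultures exceeded all Nat1+/- cultures, and Nat1-/- replicate 3 was below WT. Over Nat1+/- it rose by 0.80 ± 0.21 (adjusted p = 0.0176), and the call ended without Nat1-/- replicate 2 or Nat1+/- replicate 2 (adjusted p up to 0.0688). In total RNA Eif3f had 6055, 5024 and 4192 in Nat1-/-, 5285, 4712 and 4711 in Nat1+/-, and 5991 and 4940 in WT, which overlapped (0.04 ± 0.15). Eif3k footprints were 16655, 15290 and 9577 in Nat1-/-, 8472, 7594 and 8979 in Nat1+/-, and 10049 and 10769 in WT. Those of Eif3l were 18486, 16365 and 11951 in Nat1-/-, 11106, 9695 and 11337 in Nat1+/-, and 13559 and 13789 in WT. For both, Nat1-/- replicates 1 and 2 were above all other cultures and replicate 3 was above Nat1+/- and below WT. Eif3k had 0.69 ± 0.20 in footprints against 0.01 ± 0.15 in total RNA, and Eif3l 0.52 ± 0.17 against -0.02 ± 0.13 (adjusted p in footprints 0.0235 and 0.0392). The Eif3k call ended without replicate 1 or 2 of either genotype (adjusted p up to 0.0972), and the Eif3l call without any culture but Nat1-/- replicate 3 (adjusted p up to 0.133). Eif3b, Eif3c, Eif3g, Eif3i and Eif3j1 were called in neither assay, with footprint values between -0.27 and 0.26 and total RNA values between -0.45 and -0.25 on the log2 scale.

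**Figure D3:**
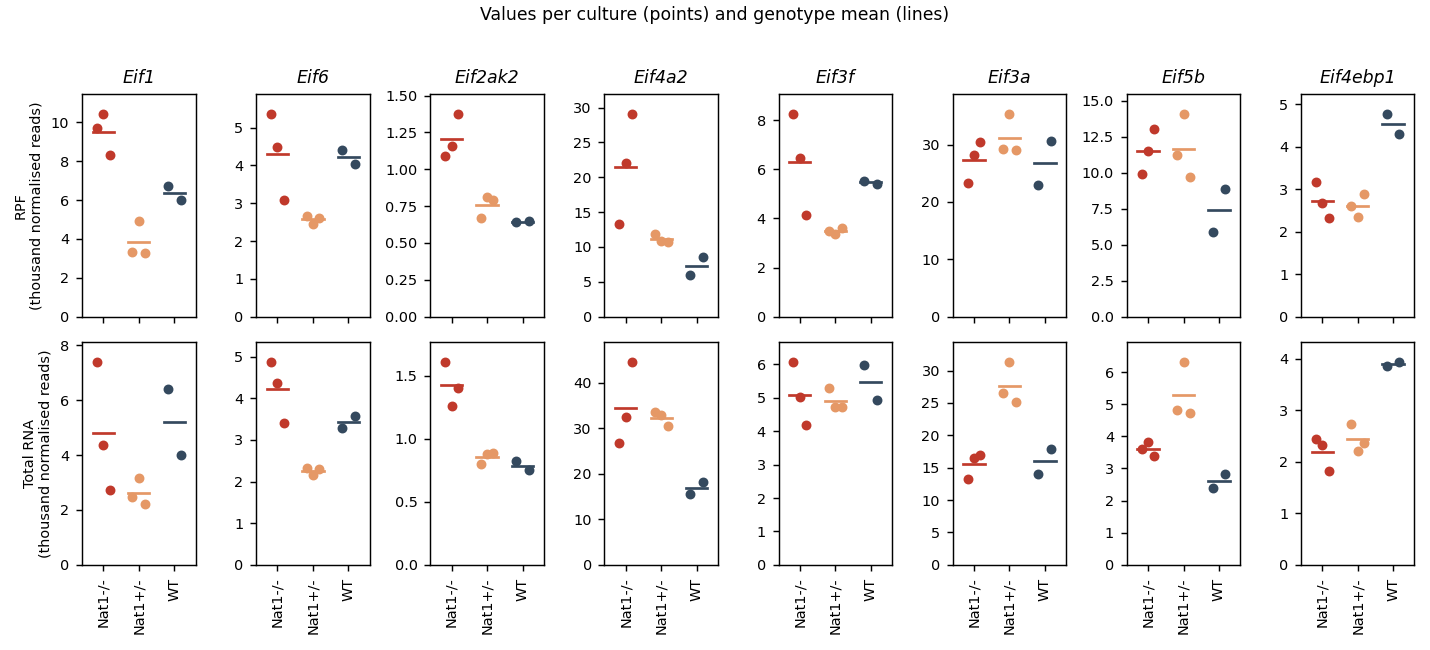
Normalised reads (in kilo-reads, axes from 0) of 8 initiation factors in footprints (top) and total RNA (bottom), with a point per culture and a line at the genotype mean. Eif1, Eif6 and Eif3f are lowest in Nat1+/- footprints, Eif3a is highest in Nat1+/- total RNA, and Eif4ebp1 is lower in Nat1-/- and Nat1+/- than in WT.

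In the cap-binding and helicase group, Eif4a2 footprints rose and Eif4b RNA fell in Nat1-/- against Nat1+/- clones. Eif4a1 and Eif4a2 are near-identical helicases of the cap complex, and Eif4a3 belongs to the exon junction complex. Eif4a2 footprints were 13326, 21988 and 29033 in Nat1-/-, 11904, 10840 and 10758 in Nat1+/-, and 5977 and 8556 in WT. The genotypes did not overlap, and the Nat1-/- cultures differed among themselves by more than the Nat1+/- cultures differed from WT. The log2 fold change over Nat1+/- was 0.87 ± 0.26 (adjusted p = 0.0261), a call that ended without any culture but Nat1-/- replicate 1 (adjusted p up to 0.0895). Eif4a1 footprints were 24885, 29169 and 22485 in Nat1-/-, 25028, 32671 and 25447 in Nat1+/-, and 34055 and 37631 in WT, and Eif4a3 footprints were 9034, 8674 and 6165 in Nat1-/-, 5852, 8157 and 6851 in Nat1+/-, and 9362 and 9656 in WT. Neither was called against Nat1+/-. The footprint ratio of Eif4a2 to Eif4a1, not corrected for length and so read only across cultures, was 0.535, 0.754 and 1.29 in Nat1-/-, 0.476, 0.332 and 0.423 in Nat1+/-, and 0.176 and 0.227 in WT. It was higher in every Nat1-/- culture than in every Nat1+/- culture (exact two-sided permutation p = 0.1, the smallest possible here), and in total RNA the groups overlapped (p = 0.2). How the authors counted reads that the paralogues share is not stated, and it could affect the ratio.

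Eif4b, which stimulates the helicase, had total RNA of 23636, 24900 and 24369 in Nat1-/-, 35272, 30191 and 32041 in Nat1+/-, and 22968 and 24155 in WT. The Nat1+/- cultures were the high ones and Nat1-/- and WT overlapped. Against Nat1+/- the log2 change was -0.42 ± 0.12 (adjusted p = 0.0191), lost without Nat1-/- replicate 2 or Nat1+/- replicate 1 or 3 (adjusted p up to 0.0761). Eif4h, a smaller relative of Eif4b, had 0.01 ± 0.13 in footprints and -0.15 ± 0.14 in total RNA. The cap-binding protein Eif4e had footprints of 3258, 3104 and 2765 in Nat1-/-, 2614, 3132 and 2857 in Nat1+/-, and 3686 and 3509 in WT, and was not called. Eif4e2, a cap-binding protein that represses translation, had 6295, 6138 and 3834 in Nat1-/-, 3387, 3951 and 3564 in Nat1+/-, and 3665 and 4367 in WT. Replicates 1 and 2 of Nat1-/- were high and replicate 3 was within the range of the other genotypes, and the log2 fold change of 0.54 ± 0.19 was not called (adjusted p = 0.0505).

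Eif4e3 was at the edge of detection. It had 1, 3 and 3 footprint reads in the Nat1-/- cultures, 11, 23 and 20 in the Nat1+/- cultures, and 29 and 15 in the WT cultures. All Nat1-/- cultures were below all others, also in total RNA, where they had 35, 5 and 4 reads, against 21, 40 and 25 in Nat1+/- and 156 and 61 in WT before scaling for depth. The depth-scaled ratio of Nat1-/- to Nat1+/- was 0.127 in footprints (95% exact interval 0.0486 to 0.279) and 0.306 in total RNA (0.208 to 0.445). Those intervals cover counting error only. Its limma calls had adjusted p = 0.00444 in footprints and 0.00685 in total RNA. The footprint mean over all libraries was 12.6 normalised reads, with genotype means of 2.39 in Nat1-/-, 18.7 in Nat1+/- and 18.5 in WT. With Nat1-/- that low, it passed the minimum mean of 10 only through its higher values in Nat1+/- and WT. Its footprint difference is therefore not read as support. The eIF4E-binding proteins hold eIF4E away from eIF4G. Eif4ebp1 had 0.05 ± 0.15 and Eif4ebp2 0.04 ± 0.23 in footprints against Nat1+/-, neither called. In total RNA Eif4ebp2 had 2582, 1892 and 1161 in Nat1-/-, 1130, 1061 and 1149 in Nat1+/-, and 2207 and 1635 in WT (0.68 ± 0.25, adjusted p = 0.0512). Eif4enif1, which carries eIF4E to the nucleus and to processing bodies, was called in neither assay against Nat1+/-.

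The remaining factors act beside the main pathway. Eif6 rose in both assays, with footprints of 5354, 4489 and 3094 in Nat1-/-, 2653, 2463 and 2609 in Nat1+/-, and 4407 and 4044 in WT. Its total RNA was 4857, 4375 and 3401 in Nat1-/-, 2320, 2162 and 2295 in Nat1+/-, and 3294 and 3568 in WT. The Nat1+/- cultures were low in both assays, and Nat1-/- overlapped WT. Against Nat1+/- the log2 change was 0.71 ± 0.19 in footprints and 0.88 ± 0.14 in total RNA (adjusted p = 0.0156 and 0.00125), and the footprint call ended without Nat1-/- replicate 2 (adjusted p = 0.0651). Eif2a, which can deliver initiator tRNA without eIF2, fell in total RNA by 0.36 ± 0.11 on the log2 scale (adjusted p = 0.0287, up to 0.111 with single cultures left out, lost without Nat1-/- replicate 2 or any Nat1+/- replicate), and Eif2d was not called. Eif5a, a hypusine-bearing factor that now counts among elongation factors, had footprints of 45329, 34044 and 23248 in Nat1-/-, 21450, 32987 and 25488 in Nat1+/-, and 56227 and 44508 in WT. Its paralogue Eif5a2 had 207, 127 and 145 in Nat1-/-, 165, 248 and 178 in Nat1+/-, and 148 and 131 in WT. Neither was called against Nat1+/-.

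In translational efficiency, 16 of the 48 initiation factors rose and 1 fell in Nat1-/- against Nat1+/- clones by a fit that paired the libraries of a culture, and 0 were called by a fit that did not. Those that rose were 9 eIF3 subunits, Eif4b, Eif4a2, Eif4e, Eif2a, Eif2s2, Eif2s3x and Eif5b. The log2 fold change of TE was positive for 39 of the 48 genes and for 13 of 13 eIF3 subunits, beside 51.4% of all genes. Its median was 0.24 over the 48 and 0.48 over eIF3, against 0.01 over all genes. Whether single genes passed depended on the model. The limma fit without a culture term called 0 of 48, beside 0.58% of all genes. At an unadjusted p under 0.05 there were 14 of 48 (29.2%, against 10.5% of all genes). By edgeR 0 of 48 were called (0.65% of all genes) and by DESeq2 4 of 48 (8.33%, against 3.05% of all genes). Since the RPF and total RNA library of a culture come from the same clone and deviated together, a paired fit with a term for each culture was also made. It called 17 of 48, of which 16 rose (33.3%, against 6.49% of all genes) and 1 fell (2.08%, against 9.26%). The paired count ranged from 5 (without Nat1+/- replicate 1) to 21 (without Nat1-/- replicate 3), with 6 without Nat1+/- replicate 3 or Nat1-/- replicate 2 and 9 without Nat1+/- replicate 2. With only the 5 cultures whose total RNA was sequenced less deeply it was 19. Paired counts over all 12933 genes moved too, from 839 higher and 1198 lower with all cultures. They were 192 and 565 without Nat1+/- replicate 1, and 1237 and 1714 without Nat1-/- replicate 3. With the 5 less deeply sequenced cultures they were 858 and 1046. The 5 calls that held whichever culture was left out were Eif3a, Eif3f, Eif3h, Eif4a2 and Eif4b.

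The TE of Eif3a was 0.82, 0.78 and 0.84 in Nat1-/-, 0.14, 0.18 and 0.21 in Nat1+/-, and 0.70 and 0.77 in WT. Nat1+/- stood apart from both other genotypes by more than any spread within a genotype. Its change over Nat1+/- was 0.64, with a standard error of 0.09 in the paired fit and 0.24 in the unpaired one (adjusted p = 0.00163 and 0.298). The TE of Eif4b was -0.73, -0.78 and -1.02 in Nat1-/-, -1.67, -1.67 and -1.58 in Nat1+/-, and -1.21 and -0.88 in WT. Its fold change of 0.80 had the smallest unpaired p of the 48 (adjusted p = 0.0750 unpaired and 0.00212 paired). Eif4a2 had -1.0, -0.56 and -0.61 in Nat1-/-, -1.49, -1.60 and -1.5 in Nat1+/-, and -1.39 and -1.09 in WT, and here the WT cultures were nearer to Nat1+/-. Its fold change was 0.80 ± 0.13 in the paired fit (adjusted p = 0.00355, unpaired 0.412). Eif3h had 0.88, 0.42 and 0.35 in Nat1-/-, -0.18, -0.26 and -0.12 in Nat1+/-, and 0.52 and 0.44 in WT. Eif3f had 0.44, 0.36 and -0.02 in Nat1-/-, -0.60, -0.49 and -0.38 in Nat1+/-, and -0.12 and 0.13 in WT. In both, Nat1+/- lay below every other culture.

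Within eIF3, 9 of 13 subunits rose in the paired fit (69.2%, against 6.49% of all genes) and 0 of 13 were called in the unpaired one. Those 9 were Eif3a, Eif3c, Eif3d, Eif3f, Eif3g, Eif3h, Eif3k, Eif3l and Eif3m, with log2 fold changes between 0.36 (Eif3c) and 0.76 (Eif3f). The other 4, Eif3b, Eif3e, Eif3i and the loosely bound Eif3j1, had 0.18, 0.16, 0.18 and 0.39. In 11 of 13 subunits the TE of the Nat1-/- cultures lay wholly above that of the Nat1+/- cultures (84.6%, against 18.5% of all genes tested in TE). Over the 48 the cultures did not overlap in 30 genes, in either direction (62.5%, against 36.9% of all genes). The same TE value arose in different ways, since Eif3f, Eif3k and Eif3l were called higher in footprints and not in RNA, and Eif3a, Eif3d and Eif3m were called lower in RNA and not in footprints. Outside eIF3 the paired fit also called Eif2a (0.54), Eif2s2 (0.47), Eif2s3x (0.45), Eif5b (0.52) and Eif4e (0.32), and Eif4ebp2 as the single fall (-0.64). The TE of Eif2a was 0.70, 0.72 and 0.36 in Nat1-/-, -0.03, 0.13 and 0.08 in Nat1+/-, and 0.35 and 0.67 in WT, and that of Eif3m was 0.23, 0.28 and -0.06 in Nat1-/-, -0.33, -0.29 and -0.33 in Nat1+/-, and 0.10 and 0.16 in WT. For both the Nat1+/- values lay below all 5 others. None of the 5 eIF2B subunits and none of the 4 kinases passed in either TE fit. The paired fit called 6.49% of all genes higher and 9.26% lower, so 0 among so few genes is near that share. All 4 kinases had negative log2 fold changes of TE, from -0.34 to -0.06, where 51.4% of all genes were positive.

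The contrast with WT showed which genotype stood apart. The 3 TE comparisons share samples and are not independent of each other. For eIF3 the median TE change was 0.48 in Nat1-/- against Nat1+/-, 0.09 in Nat1-/- against WT and -0.39 in Nat1+/- against WT. In the last, 13 of 13 subunits were negative, where 52.9% of all genes were positive. The subunits were measured in the same cultures and are not replicates. Without a culture term 0 of 48 genes were called against WT in Nat1-/- (0.00773% of all genes) or in Nat1+/- (0% of all genes). At an unadjusted p under 0.05 there were 0 of 48 in Nat1-/- (2.54% of all genes) and 6 of 48 in Nat1+/- (12.5%, against 5.13% of all genes). DESeq2 called 0 of 48 in Nat1-/- (0.286% of all genes) and 0 in Nat1+/- (0.139%), and edgeR called 0 in both (0.00773% and 0% of all genes). The paired fit called 0 of 48 in Nat1-/- against WT (0.232% of all genes higher and 0.99% lower). In Nat1+/- against WT it called 1 of 48, the fall of Eif3a (-0.56, adjusted p = 0.0443, up to 0.314 with single cultures left out and lost without any 1 of the 5), where 0.696% of all genes were higher and 0.433% lower.

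**Figure D4:**
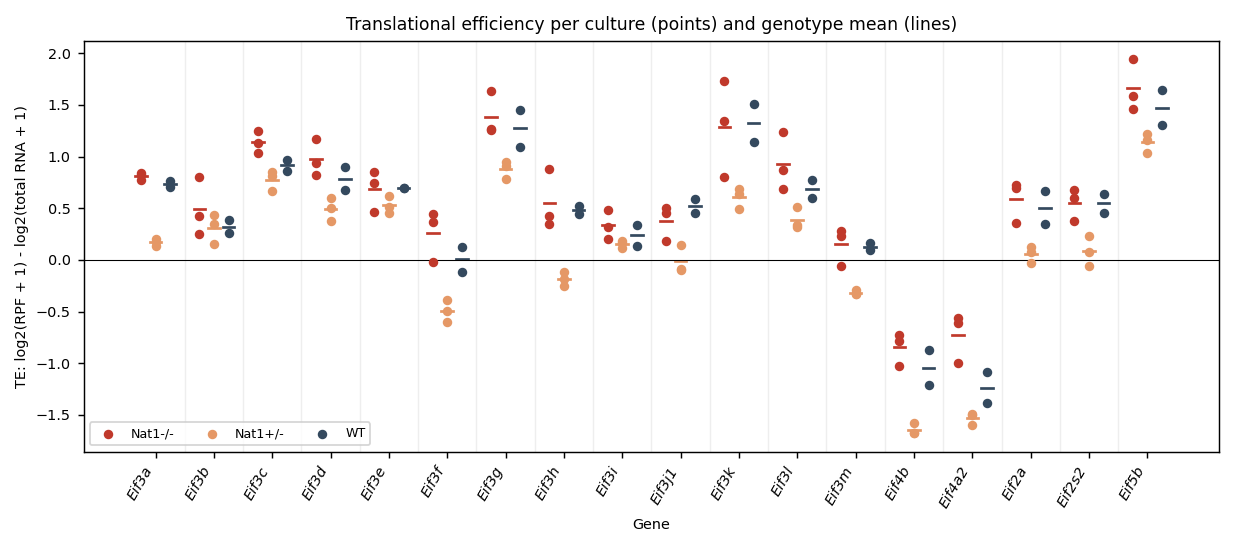
TE, log2(RPF + 1) minus log2(total RNA + 1), of the 13 eIF3 subunits and 5 other factors, with a point per culture and a line at the genotype mean. For Eif3a, Eif3f, Eif3h, Eif3m and Eif4b the Nat1+/- points lie below all Nat1-/- and WT points. TE is not corrected for the length of the coding sequence, so heights are compared within a gene.

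Many mRNAs of the translation machinery begin with a run of pyrimidines (C or T in the DNA), and start sites with and without such a run are shown for that reason, from genes called in the paired TE fit and chosen after their values were seen. Of the 48 genes 40 had a start-site window in RefSeq (GRCm38.p6), read from 20 bases before to 20 bases after the annotated start on the gene's strand, with any of several starts counting. The capitals mark the longest unbroken run of C and T where it reached 8 letters. The first 4 windows hold such a run and the last 3 do not. A run anywhere in the window counted, also before the start. The run of Eif3m lies wholly before the annotated start and so outside the annotated mRNA.
Eif3f (chr7:108934395-108934434, plus strand): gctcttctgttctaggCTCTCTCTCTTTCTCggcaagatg
Eif3l (chr15:79075203-79075242, plus strand): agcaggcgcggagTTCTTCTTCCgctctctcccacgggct
Eif3m (chr2:105017008-105017047, minus strand): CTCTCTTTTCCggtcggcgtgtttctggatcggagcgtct
Eif2s3x (chrX:94212632-94212671, minus strand): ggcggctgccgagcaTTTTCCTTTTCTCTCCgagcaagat
Eif3a (chr19:60790674-60790713, minus strand): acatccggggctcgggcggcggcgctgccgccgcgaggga
Eif4b (chr15:102073753-102073792, plus strand): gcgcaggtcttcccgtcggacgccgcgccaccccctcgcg
Eif4a2 (chr16:23107448-23107487, plus strand): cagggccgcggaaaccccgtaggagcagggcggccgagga
Such a run was found in 9 of the 40 initiation factors (22.5%) and in 4965 of 27025 genes with a window (18.4%), so the share was near that of all genes. With either strand counted the shares were 32.5% and 35.7%. The 9 with a run had a median TE change of 0.45 in Nat1-/- over Nat1+/-, from -0.34 to 0.76, and the 31 without one had 0.24, from -0.64 to 0.80. The ranges overlapped nearly throughout, and Eif4b and Eif4a2, which had the highest TE changes, are among those without a run.

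Against WT, the share of initiation factors called in Nat1-/- cultures was below that of all genes in both directions and both assays. In footprints 4 of 48 rose (8.33%, against 16.5% of all genes) and 3 fell (6.25%, against 18.3%). In total RNA 4 rose (8.33%, against 16.2%) and 5 fell (10.4%, against 18.9%). The number of members called with single cultures left out ranged from 1 (without WT replicate 1) to 10 in footprints, with 4 without Nat1-/- replicate 2. In total RNA it ranged from 4 (without WT replicate 1) to 11, with 5 without WT replicate 2 or Nat1-/- replicate 2. Over all genes the counts fell as well without Nat1-/- replicate 2. They were 1315 higher and 1760 lower in footprints, against 2167 and 2400 with all cultures. In total RNA they were 1539 and 2051, against 2231 and 2608. The genes that rose in footprints were Eif4a2, Eif2ak2, Eif5b and Eif1, and those that fell were Eif4e3, Eif4ebp1 and Eif4enif1. Eif4a2 rose by 1.51 ± 0.29 in footprints and 1.00 ± 0.20 in total RNA on the log2 scale (adjusted p = 0.00341 and 0.00374), Eif2ak2 by 0.90 ± 0.16 and 0.85 ± 0.15 (0.00230 and 0.00207). Total RNA of Eif4a2 was 26678, 32503 and 44447 in Nat1-/-, 33490, 32805 and 30399 in Nat1+/-, and 15613 and 18172 in WT, so that both targeted genotypes were above WT and overlapped each other. The Eif2ak2 calls and the total RNA call of Eif4a2 held whichever culture was left out, and the footprint call of Eif4a2 ended without WT replicate 1 (adjusted p = 0.0510).

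Eif4ebp1, one of the brakes on eIF4E, was lower in both targeted genotypes than in WT. Its footprints were 3166, 2666 and 2325 in Nat1-/-, 2609, 2347 and 2884 in Nat1+/-, and 4765 and 4294 in WT. Its total RNA was 2447, 2330 and 1820 in Nat1-/-, 2738, 2211 and 2373 in Nat1+/-, and 3870 and 3929 in WT. In both assays WT was above all 6 targeted cultures, which overlapped. In Nat1-/- it fell by 0.75 ± 0.17 in footprints and 0.84 ± 0.16 in total RNA on the log2 scale (adjusted p = 0.00711 and 0.00298), and the footprint call ended without WT replicate 1 (adjusted p = 0.0762). Eif4e3 fell in both assays, its depth-scaled ratio to WT being 0.126 in footprints (95% exact interval 0.0479 to 0.282) and 0.231 in total RNA (0.163 to 0.321). It passed the footprint minimum only through Nat1+/- and WT, so the same limit holds here. The limma calls of Eif4e3 ended without WT replicate 1 (adjusted p = 0.0838 and 0.0881). Also called in total RNA were rises of Eif4e2 (0.66 ± 0.21) and Eif5b (0.47 ± 0.16) and falls of Eif5a (-0.81 ± 0.26), Eif4a1 (-0.53 ± 0.17) and Eif3m (-0.40 ± 0.12). In footprints Eif5b had 0.66 ± 0.22, Eif1 0.57 ± 0.20 and Eif4enif1 -0.47 ± 0.15. Each of these 8 calls ended without at least 1 WT culture, with adjusted p up to 0.364.

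Against WT, Nat1+/- cultures had 2 initiation factors lower in footprints (4.17%, against 5.13% of all genes) and 0 higher (5.35% of all genes were). In total RNA 3 were higher (6.25%, against 4.60%) and 2 lower (4.17%, against 5.41%). The footprint calls were Eif1 (-0.76 ± 0.20, adjusted p = 0.0429) and Eif4ebp1 (-0.80 ± 0.17, adjusted p = 0.0246). The total RNA calls were Eif5b (1.01 ± 0.16), Eif4a2 (0.93 ± 0.20) and Eif3a (0.79 ± 0.17) among those higher and Eif4ebp1 (-0.68 ± 0.16) and Eif6 (-0.60 ± 0.16) among those lower. All 7 calls ended with at least 1 culture left out, WT replicate 1 and WT replicate 2 in each case, leaving between 0 and 2 called, with adjusted p up to 0.332. The fit restricted to these 2 genotypes called 12 in footprints and 12 in total RNA, that is 25% of the members in each. The same restriction raised the calls over all genes, to 20.1% in footprints and 20% in total RNA.

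Several of these genes lie on chromosomes whose genes as a whole differed between cultures, a check chosen after seeing the data. In total RNA the median of 1112 genes of chromosome 11 was -0.41 on the log2 scale in Nat1-/- against WT and -0.37 in Nat1+/- against WT. Chromosome 8 had -0.47 in Nat1-/- against WT and -0.41 in Nat1-/- against Nat1+/-, over 720 genes. Chromosome 1 had 0.34 in Nat1+/- against WT over 742 genes, with Nat1+/- replicate 2 the highest culture. The X chromosome had -0.30 in Nat1-/- against Nat1+/- over 463 genes. It holds Eif1ax and Eif2s3x, neither of them called in footprints or total RNA. The members called on chromosome 11 were Eif1, Eif4a1, Eif4enif1 and Eif5a, on chromosome 8 Eif4ebp1, and on chromosome 1 Eif4e2 and Eif5b. Minus the median of its chromosome, the log2 change in Nat1-/- against WT was -0.12 for Eif4a1, -0.40 for Eif5a, -0.37 for Eif4ebp1, 0.27 for Eif5b and 0.47 for Eif4e2 in total RNA. In footprints it was -0.09 for Eif4enif1, -0.28 for Eif4ebp1 (-0.75 before the step) and 0.47 for Eif5b. The rise of Eif1 in footprints, with the chromosome median taken off, was 1.38 against Nat1+/- and 0.96 against WT. The fall of Eif5b in the total RNA of Nat1-/- against Nat1+/- was -0.34 (-0.54 before the step). In the footprints of that contrast Eif2s3x had 0.60 (0.37 before the step). In Nat1+/- against WT, Eif1 had -0.43 in footprints (-0.76 before the step) and Eif5b 0.67 in total RNA. There Eif4ebp1 had -0.75 in footprints and -0.60 in total RNA, where chromosome 8 had a median of -0.08. Whether these chromosome-wide differences set the members' calls was not tested.

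**Figure D5:**
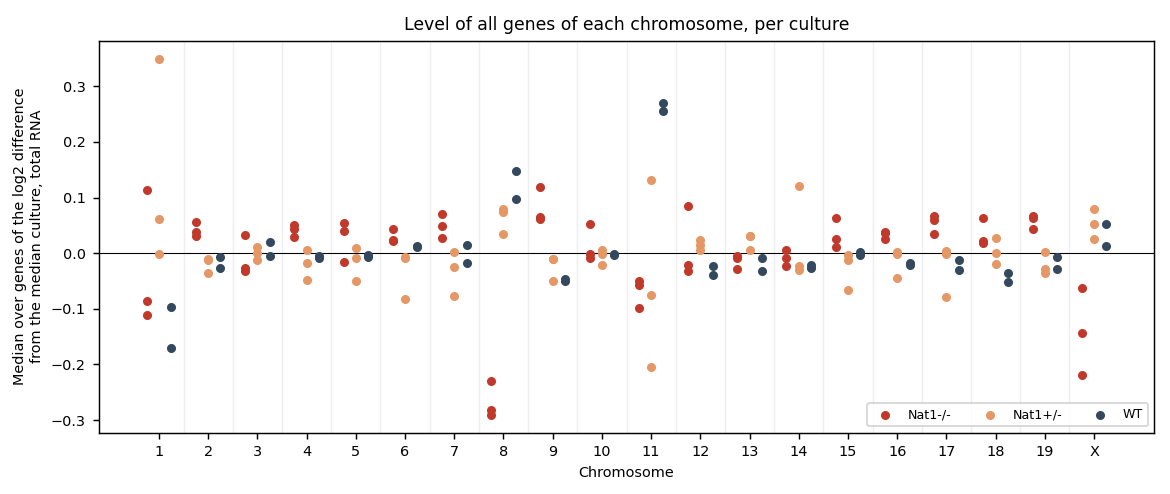
Median over all genes of a chromosome of the log2 difference from the median culture, in total RNA, with a point per culture. Both WT cultures are high on chromosome 11, the 3 Nat1-/- cultures are low on chromosome 8, and 1 Nat1+/- culture (replicate 2) is high on chromosome 1.

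Of 40 other genes that act with the initiation factors, 38 were tested. In Nat1-/- against Nat1+/-, 7 rose (18.4%, near the 17.6% of all genes) and 2 fell (5.26%, against 18.6%) in footprints. In total RNA 10 rose (26.3%, against 19.8%) and 6 fell (15.8%, against 20.2%). Ppp1r15a and Ppp1r15b, which guide the phosphatase that reverses the work of the eIF2 kinases, rose by 1.95 ± 0.23 and 1.12 ± 0.22 in footprints and by 1.44 ± 0.17 and 1.09 ± 0.21 in total RNA on the log2 scale (adjusted p from 0.000261 to 0.00405). Rps6kb2, a ribosomal protein S6 kinase, rose by 1.60 ± 0.25 in footprints (adjusted p = 0.00126). Pabpc1, the poly(A)-binding protein that contacts eIF4G, rose by 0.74 ± 0.24 (adjusted p = 0.0388), and Bzw1 (0.73 ± 0.23), Dohh (0.76 ± 0.24) and Mcts1 (0.39 ± 0.13) completed the 7, Dohh being the second enzyme of eIF5A hypusination. The 2 that fell in footprints were Larp1, which binds pyrimidine-led mRNAs (-0.75 ± 0.13), and Abce1, which splits ribosomes for recycling (-0.68 ± 0.12). In total RNA the other rises were Rps6kb2 (1.5 ± 0.23), Mknk2 (0.88 ± 0.22), Tsc2 (0.79 ± 0.13), Bzw1 (0.76 ± 0.24), Paip2b (0.55 ± 0.20), Dohh (0.54 ± 0.17), Rptor (0.51 ± 0.15) and Ddx6 (0.42 ± 0.14). The falls there were Abce1 (-0.82 ± 0.11), Pdcd4 (-0.73 ± 0.19), Impact (-0.67 ± 0.23), Pabpc4 (-0.61 ± 0.13), Gigyf2 (-0.59 ± 0.16) and Abcf1 (-0.44 ± 0.15). In the paired TE fit 5 rose (13.2%, against 6.49% of all genes), namely Abcf1 (0.49 ± 0.10), Denr (0.44 ± 0.08), Gigyf2 (0.41 ± 0.09), Pabpc4 (0.74 ± 0.18) and Rheb (0.30 ± 0.09), and 4 fell (10.5%, near the 9.26% of all genes), namely Larp1 (-0.92 ± 0.16), Mknk2 (-1.23 ± 0.24), Rptor (-0.72 ± 0.12) and Tsc2 (-0.55 ± 0.11), while the unpaired fit called 0 of 38. Against WT, Nat1-/- cultures had 7 higher (18.4%, against 16.5% of all genes) and 5 lower (13.2%, against 18.3%) in footprints, and 5 higher (13.2%, against 16.2%) and 3 lower (7.89%, against 18.9%) in total RNA. Nat1+/- cultures against WT had 2 higher (5.26%, against 5.35% of all genes) and 1 lower (2.63%, against 5.13%) in footprints. In total RNA they had 2 higher (5.26%, against 4.60%) and 3 lower (7.89%, against 5.41%).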

How the data were processed

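The authors deposited a signal per gene and library, namely read counts divided by 1 size factor per library. The submitters' processing notes name TopHat2 2.1.0, Bowtie2 2.2.8 and HTSeq 0.6.1, the scaling tool DESeq2, and the builds mm10 and GRCm38.p4, and say nothing of strand or multi-mapping reads. When the factor was multiplied back, 100% of values lay within 0.001 of a whole read. RPF and total RNA were scaled separately, which hides any shift common to most genes. Depth is given with the samples.

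RPF and total RNA were each analysed on log2(value + 1) in limma 3.58.1 under R 4.3.3, with a mean-variance trend, over genes with a mean of at least 10, with 3 genotype means, two-sided tests and Benjamini-Hochberg adjustment over all genes. TE was the interaction of assay and genotype over 16 libraries. The RPF and total RNA libraries of a culture carry the same clone name and deviated together (r = 0.384 to 0.821 across genes), so the fit with a culture term is paired and is given where it changes calls. As alternatives the recovered counts were tested in DESeq2 1.42.0 and in edgeR 4.0.16, and each culture was left out in turn. The fits were checked on simulated reads with known changes. Those reads were drawn without any deviation shared by the libraries of a culture. That check therefore cannot decide between the paired and the unpaired TE fit. Ratios of 2 genes were compared by an exact permutation test. P-values measure the spread between the clones and cultures sequenced.

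The members and lists were chosen with earlier results of these data known. All members may be named, and culture values are given for those called in Nat1-/- against Nat1+/- (per assay, up to 8 with the largest rise and 8 with the largest fall, and the 6 with the smallest TE p) and for paralogue sets; a few others were added after their values were seen. Chromosomes and start-site sequences came from RefSeq (GRCm38.p6), with no coordinates converted from the authors' build.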

Additional observations from a re-analysis of the deposited data

How the results depend on the processing

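The 68 single-gene calls were refitted in 1085 alternatives, of which 838 stayed called, 247 did not and 0 changed direction; the causes were not tested. For Nat1-/- against Nat1+/- the 12 footprint calls became 6 with only the 5 less deeply sequenced cultures and 5 to 20 with single cultures left out, and the 15 total RNA calls 10 to 19. The TE calls, 0 without a culture term, became 4 by DESeq2, 0 to 6 with single cultures left out and 17 with the replicate block (the culture term of the paired fit). Those 17, under alternatives added after seeing the data, became 6 without a variance trend and 5 to 21 with single cultures left out. For Nat1-/- against WT the 7 footprint calls became 4 without a trend, 12 by DESeq2 and 1 to 10 with single cultures left out, and the 9 total RNA calls 14 with equal library sums, 5 without a trend and 4 to 11 with single cultures left out. For Nat1+/- against WT the 2 footprint calls became 1 without a filter, 0 without a trend, 1 by edgeR, 9 by DESeq2, 0 with the replicate block, 12 with only these genotypes and 0 to 2 with single cultures left out. The 5 total RNA calls became 1 without a trend, 10 by DESeq2, 1 with the replicate block, 12 with only these genotypes and 0 to 2 with single cultures left out, and the 0 TE calls became 1 with the replicate block. Counts over all genes also moved under these alternatives. With only the 5 less deeply sequenced cultures, 1689 of 13110 genes were higher and 1948 lower in Nat1-/- against Nat1+/- footprints. The main fit had 2303 and 2434. Equal library sums moved the median of all genes in Nat1+/- against WT total RNA to -0.11. Within footprints or total RNA the replicate block pairs same-numbered libraries of different genotypes; it was tried only as an alternative, since the numbers name separate clones and same-numbered libraries correlated at -0.19 to 0.34. Where a fit left 1 WT culture, that culture was assumed to vary like the other genotypes. With 2 or 3 cultures per genotype and total RNA depth tied to genotype, a missed call does not show equal levels.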
